A study of Homo sapiens with 8 samples.

Results

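The genes described here encode the factors that start, stop and recycle translation: 43 protein-coding genes, chosen by symbol from a fixed list, among 78932 gene IDs of the deposited count table. All 43 were found and all 43 were among the 24289 genes that passed the filter on low counts. They were sorted by complex into eIF1 and eIF1A (3 genes), eIF2 (3), its exchange factor eIF2B (5), eIF3 (13), eIF4 with the poly(A)-binding partner PAIP1 (9), eIF5 with the joining factors (3), alternative initiation and reinitiation (4), and termination and recycling (3).

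Cells of the acute myeloid leukaemia lines Molm13 and U937 carried either a control or a lentiviral OGFOD1 overexpression vector, labelled OE. The sample titles mark the controls as ctrl and their library names as Scr. OGFOD1 is a prolyl hydroxylase of the small ribosomal subunit protein RPS23. All cells received cycloheximide, which freezes elongating ribosomes, and their lysates were spun through sucrose gradients, so the controls share that treatment. Each of the 4 gradients was divided into a light pool (free ribonucleoproteins, monosomes and disomes) and a heavy pool (3 or more ribosomes per mRNA), which gave 8 libraries: 1 per line, label and pool, or n = 2 per group with the line as the replicate. The labels name no separate cultures or clones of a line, so every p-value reflects only how far these particular libraries differ, which may be technical.

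In the first step of initiation eIF2 carries the initiator tRNA to the small subunit as a GTP complex, eIF2B recharges eIF2 with GTP, and eIF1, eIF1A and eIF3 keep the small subunit open for scanning. The eIF4 group recruits the capped end of an mRNA, and eIF5 and eIF5B complete start codon selection and subunit joining. At a stop codon eRF1 (ETF1) and eRF3 (GSPT1) release the protein and ABCE1 splits the ribosome. Many mRNAs of the translation machinery begin with a C followed by an uninterrupted pyrimidine run, the 5′ terminal oligopyrimidine tract, through which mTORC1 and LARP1 control how far they are loaded with ribosomes.

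The first transcribed bases of several members are printed here because the members with such a start and those without lay at different places in the gradient. Starts were taken from RefSeq promoters on GRCh38.p14, which matched 37 of the 43 members. EIF2S2, EIF3A, EIF3E, EIF3G, EIF3H and EIF3L had no entry. Each window runs 5′ to 3′ on the transcribed strand, with 10 bases before the annotated first base and 20 from it on. Capitals mark the first base and, where it is a C, the pyrimidine run that follows it. The first 8 are all the members with a C and at least 4 further pyrimidines (C or T) at the annotated start, and the last 4 are members without one that were among the highest in heavy pools.
EIF2S3 (chrX:24054946-24054975, plus strand): gatttccttcCTCTTTTggcaacatggcgg
EIF2A (chr3:150546777-150546806, plus strand): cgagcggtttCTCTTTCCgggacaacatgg
EIF3F (chr11:7987327-7987356, plus strand): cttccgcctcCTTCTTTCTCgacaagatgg
EIF4A2 (chr3:186783567-186783596, plus strand): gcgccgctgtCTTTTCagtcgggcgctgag
EIF2D (chr1:206612446-206612475, minus strand): ccagccgggcCCTTTTCgcggccgggcccc
EIF3D (chr22:36529147-36529176, minus strand): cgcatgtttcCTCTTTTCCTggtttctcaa
EIF3K (chr19:38619178-38619207, plus strand): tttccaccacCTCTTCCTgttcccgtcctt
EIF3M (chr11:32583821-32583850, plus strand): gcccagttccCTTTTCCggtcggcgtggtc
EIF6 (chr20:35284698-35284727, minus strand): tggtaagctgGtgtgaggggaacctgggag
EIF3B (chr7:2354817-2354846, plus strand): tcgcacgcacAtggctgggctgtagccgtc
EIF4G1 (chr3:184314596-184314625, plus strand): gcggggagccGgaaatggttgtggactacg
EIF2B3 (chr1:44986576-44986605, minus strand): gctgtcagtcAgaggcggcgtggagatcgc

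Libraries held 25741930 to 89373133 counts, and the members took 0.753% to 1.087% of them. The Molm13 control light library stood apart from the other light pools: mitochondrial genes held 2.49% of its counts against 19.85% to 23.34% in the other 3 light pools and 0.36% to 0.94% in the heavy pools, so pool results are also given without it. OGFOD1 counts did not follow the label OE and were below control there. Light pools had 33 and 49.8 CPM in control against 16.7 and 10.1 CPM in OE (Molm13 before U937). Heavy pools had 44.4 and 60.2 CPM in control against 25.3 and 12.4 CPM in OE. The log2 fold change over both pools was -1.60 ± 0.30 (SE), with an adjusted p of 0.0178 in edgeR's quasi-likelihood test. With the pools of a gradient summed, 0 of 25667 genes passed, so that call was lost. Why OGFOD1 counts were lower was not tested. Directions below therefore refer to the label OE. Between the lines 0 of 24289 genes passed the test (edgeR, adjusted p of 0.05; 2862 genes at an unadjusted p under 0.05), although DESeq2 called 291 genes, edgeR with no filter 412 and limma voom 1. The line label is the replicate and the block in the fits, and whether the libraries hold the lines they are labelled with was not tested. Of 11 myeloid markers 11 were detected in every library, while of the markers of other cell types CD3E, MS4A1, HBB and EPCAM were at or near 0. The T cell sum, nearly all of it CD3D, was 1.30 to 33.8 CPM in control and 16.2 to 127.9 CPM in OE libraries, and its part in the comparisons of the label was not tested. Counting error was small beside these spreads: EIF2B3 in Molm13 OE light rested on 336 counts, or 7.31 CPM of all counts with an exact 95% binomial interval of 6.55 to 8.14, which covers counting error only.

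Unless stated otherwise, values are CPM, that is counts relative to the library total after scaling the libraries to each other, given for Molm13 and then U937. A CPM is a share of the reads of one pool. No value links the pools to the amount of RNA in each, so a gene higher in the heavy pool takes a larger share of heavy reads, and the fraction of its mRNA on polysomes is not measured. In such bulk libraries fewer cells with an mRNA and less of it per cell cannot be told apart.

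Heavy pools were first compared with light pools over both labels, to see how the members themselves were loaded with ribosomes. Members of eIF2, eIF3, eIF4 and the alternative initiation group lay on both sides, while eIF1 with eIF1A, eIF2B and the eIF5 group had no member that was lower. The mRNAs for 3 subunits of the exchange factor eIF2B, the scaffold EIF4G1, the anti-association factor EIF6 and the eIF3 subunits EIF3B and EIF3I were higher in heavy pools, by 2.15 to 3.74 times, while EIF2S3, EIF2A, EIF3L, EIF3F, EIF3E and EIF4A2 were lower by 2.30 to 3.95 times. In all, 23 of 43 members (53.5%) passed the test, 14 higher and 9 lower in the heavy pool. Over all genes 28.6% passed, 15.8% higher and 12.8% lower. Among the 9299 genes of at least 10 CPM, a level closer to that of the members, the share was 44.1%, with 30.7% higher and 13.4% lower. The median log2 fold change was 0.48 over the members, -0.04 over all genes and 0.28 over genes of at least 10 CPM.

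In eIF2, the 3 subunit mRNAs went different ways. EIF2S3, the gamma subunit that binds GTP and the initiator tRNA, had 217 and 622 CPM in control light pools, 812 and 1045 in OE light pools, 164 and 195 in control heavy pools, and 113 and 140.1 in OE heavy pools. Every heavy library was below every light library, and the distance was smallest in the Molm13 control gradient. The log2 fold change was -1.98 ± 0.33 with an adjusted p of 0.00145. EIF2S1, the alpha subunit whose phosphorylation shuts initiation down, had 52.3 and 62.4 CPM in control light, 37.8 and 33.8 in OE light, 82.1 and 88 in control heavy and 63.2 and 55.8 in OE heavy pools. Within each gradient the heavy pool was the higher, with some overlap between gradients, and the change was 0.65 ± 0.23 (adjusted p = 0.0489; 0.0661 with the gradient as a fixed block). EIF2S2, the beta subunit, had a log2 fold change of 0.76 ± 0.27 that did not pass (adjusted p = 0.0529).

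All 5 eIF2B subunits had positive fold changes, with a median of 1.11, and 3 passed. Summed over the complex, the level was 100.2 to 198 CPM in the 4 light pools and 233 to 285 CPM in the 4 heavy pools, without overlap. EIF2B3, the gamma subunit, which forms the catalytic part with EIF2B5, had 26.8 and 21.6 CPM in control light, 6.99 and 8.26 in OE light, 41.7 and 42.6 in control heavy and 36.8 and 25.1 in OE heavy pools. Only U937 OE heavy lay below the highest light library, and EIF2B3 changed by 1.41 ± 0.23 (adjusted p = 0.00152). EIF2B4, a regulatory subunit, stood at 35.9 and 19.9 CPM (control light), 19.5 and 18.9 (OE light), 57.8 and 47.5 (control heavy) and 57.4 and 37.1 (OE heavy), with no overlap and a change of 1.11 ± 0.23 (adjusted p = 0.00449). EIF2B1, the regulatory alpha subunit, stood at 66.9 and 47.6 CPM (control light), 25.4 and 26.2 (OE light), 65.2 and 88.3 (control heavy) and 108 and 99.2 (OE heavy). Its heavy and light levels were alike in the Molm13 control gradient and apart in the other 3, and the change was 1.22 ± 0.25 (adjusted p = 0.00373). EIF2B1 shares 14.8% of its exon bases with DDX55 on the opposite strand, and reads there cannot be assigned without strand. EIF2B2 and EIF2B5, the latter the catalytic subunit, had changes of 0.55 and 0.39 that did not pass.

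**Figure D1:**
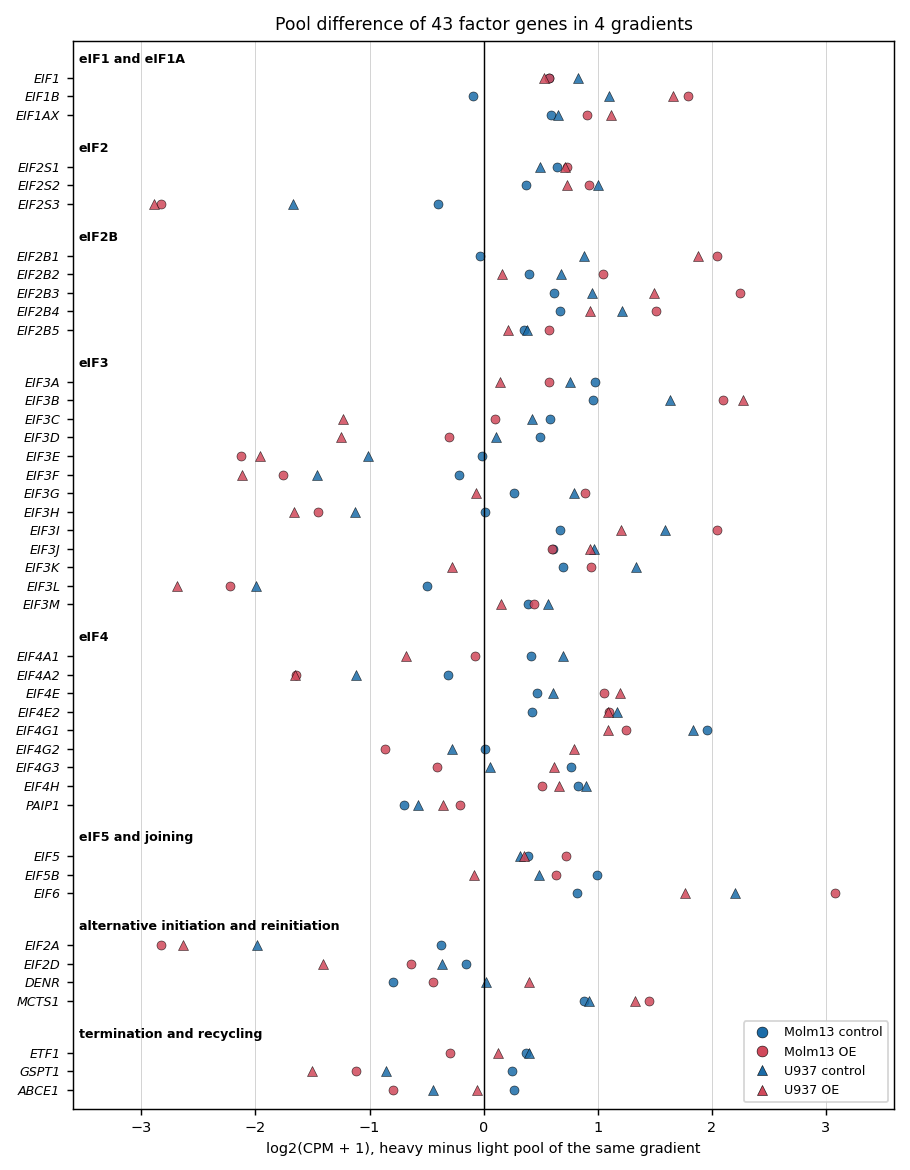
Difference between the heavy and the light pool of the same gradient, in log2(CPM + 1), for each of the 43 genes (rows, sorted by complex). Circles are Molm13, triangles U937, blue control and red OE, 1 point per gradient. The 5 eIF2B genes lie mostly to the right of 0, EIF2S3, EIF2A and EIF3L lie to the left in all 4 gradients, and the Molm13 control gradient (blue circles) lies nearest to 0 in most of the genes that moved.

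The 13 subunits of eIF3, the largest initiation factor, spread over almost the whole range of the members, from -1.87 (EIF3L) to 1.75 (EIF3B), with 3 higher, 4 lower and a median of 0.40. The 4 that were lower were EIF3E, EIF3F, EIF3H and EIF3L, and the 3 that were higher were EIF3B, EIF3I and EIF3J. EIF3B had 116 and 70.7 CPM in control light, 42.4 and 37.4 in OE light, 226 and 222 in control heavy and 185 and 184 in OE heavy pools. EIF3I had 227 and 119 CPM in control light, 97.7 and 105 in OE light, 361 and 360.2 in control heavy and 407 and 242 in OE heavy pools. Neither gene overlapped between pools, and the changes were 1.75 ± 0.27 (adjusted p = 0.00102) for EIF3B and 1.37 ± 0.30 (adjusted p = 0.0050) for EIF3I. EIF3J stood at 104 and 119 CPM (control light), 75.7 and 90.6 (OE light), 158 and 234 (control heavy) and 115 and 174 (OE heavy). It was higher in the heavy pool of every gradient, by 0.78 ± 0.25 in the fit (adjusted p = 0.0344; 0.0560 with the gradient as a fixed block), though Molm13 OE heavy lay just below U937 control light.

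Among the subunits that were lower, EIF3L had 209 and 577 CPM in control light, 532 and 889 in OE light, 148 and 144 in control heavy and 113 and 137 in OE heavy pools. EIF3F had 268 and 537 CPM in control light, 614 and 828 in OE light, 229.8 and 195 in control heavy and 180.2 and 189.8 in OE heavy pools. For both, every heavy library was below every light library; EIF3L fell by 1.87 ± 0.33 (adjusted p = 0.00194) and EIF3F by 1.40 ± 0.31 (adjusted p = 0.00589) on the log2 scale. EIF3L shares 41.1% of its exon bases with the annotated gene AL022311.1, so its level is uncertain. EIF3E had 517 and 1494 CPM in control light, 1417 and 1677 in OE light, 511 and 738 in control heavy and 323 and 431 in OE heavy pools. EIF3H had 406 and 855 CPM in control light, 770.2 and 965 in OE light, 409 and 391 in control heavy and 281 and 304 in OE heavy pools. In the Molm13 control gradient both were at nearly the same level in the 2 pools, and in the other 3 gradients the heavy pool was lower, giving -1.32 ± 0.34 for EIF3E (adjusted p = 0.0116) and -1.07 ± 0.31 for EIF3H (adjusted p = 0.023). EIF3A, EIF3C, EIF3D, EIF3G, EIF3K and EIF3M lay between -0.25 and 0.66 and did not pass.

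Per kilobase of exon, the eIF3 mRNAs also differed in level, although their proteins share one complex. Over the 8 libraries the mean was 198 CPM per kb for EIF3K, 148 for EIF3E and 139 for EIF3I, against 16.8 for EIF3A, the largest subunit, and 15.0 for EIF3B. The order depended on the pool: EIF3E (213 CPM per kb), EIF3K (151) and EIF3L (128) led in light pools, and EIF3K (245), EIF3I (199) and EIF3G (91.6) in heavy pools. EIF3C, at 0.373 CPM per kb, is not a usable level, because reads that match its near-identical copy EIF3CL cannot be assigned. The exon lengths join all annotated transcripts, which lowers the value of genes with long rare exons.

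**Figure D2:**
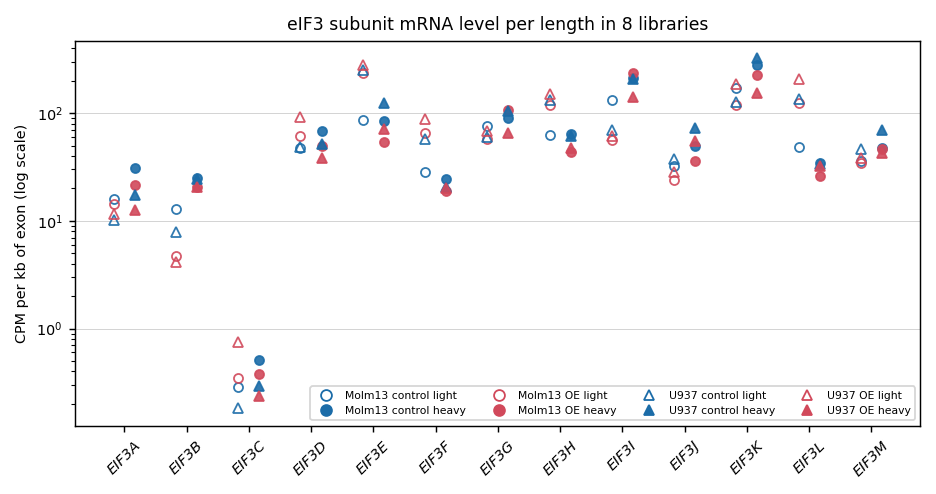
Level of the 13 eIF3 subunit mRNAs in CPM per kb of exon (log axis), with 1 point per library: open symbols light pools, filled symbols heavy pools, circles Molm13, triangles U937, blue control, red OE. For EIF3E, EIF3F, EIF3H and EIF3L most or all open symbols lie above the filled ones, for EIF3B and EIF3I all lie below, and EIF3C lies far below the other subunits.

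In the eIF4 group, 3 genes were higher, 1 was lower and the median was 0.26. EIF4G1, the scaffold that bridges the cap-binding protein and eIF3, had 26.2 and 16.3 CPM in control light, 10.4 and 13 in OE light, 104 and 60.8 in control heavy and 26.2 and 28.8 in OE heavy pools. It was higher in the heavy pool of every gradient, most in the controls, with a change of 1.59 ± 0.26 (adjusted p = 0.00138). EIF4E, the cap-binding protein, stood at 65.2 and 75.3 CPM (control light), 49.9 and 49.7 (OE light), 90.7 and 115 (control heavy) and 104 and 115 (OE heavy). EIF4E2, its relative that binds caps without EIF4G1, stood at 112 and 68.3 CPM (control light), 76.5 and 61.7 (OE light), 150.3 and 155 (control heavy) and 165 and 132 (OE heavy). Neither cap-binding gene overlapped between pools, and the changes were 0.84 ± 0.24 (adjusted p = 0.0187) for EIF4E and 0.95 ± 0.26 (adjusted p = 0.015) for EIF4E2. EIF4A2, one of the paralogous eIF4A helicases, had 94 and 179 CPM in control light, 265 and 318 in OE light, 75.4 and 81.9 in control heavy and 83.9 and 100.3 in OE heavy pools. It was lower in the heavy pool of each gradient, by -1.20 ± 0.27 in the fit (adjusted p = 0.00595), whereas EIF4A1 had a change of 0.09 ± 0.29. EIF4A1 shares 41.1% of its exon bases with the annotated gene AC016876.2 and 29.8% with the readthrough gene SENP3-EIF4A1. EIF4G2, EIF4G3, EIF4H and PAIP1 did not pass.

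Of the start-site factors, EIF1B, a close paralogue of EIF1, had 67.5 and 30.2 CPM in control light, 40.9 and 26.4 in OE light, 63 and 66 in control heavy and 144 and 85.4 in OE heavy pools. EIF1AX, which encodes eIF1A, had 82.8 and 115 CPM in control light, 58.8 and 42.3 in OE light, 125 and 180.5 in control heavy and 111 and 93.1 in OE heavy pools. EIF1B was at a similar level in both pools of the Molm13 control gradient and was higher in the heavy pool of the other 3, with a change of 1.14 ± 0.26 (adjusted p = 0.00662); EIF1AX was higher in all 4 gradients, by 0.82 ± 0.27 (adjusted p = 0.0365). EIF1, the most abundant member per kilobase at a mean of 269 CPM per kb, had a change of 0.62 ± 0.31 that did not pass. EIF6, which keeps free large subunits from joining early, had 284 and 84.1 CPM in control light, 65.2 and 76.8 in OE light, 502 and 390.5 in control heavy and 559 and 263 in OE heavy pools. Its control light level in Molm13 was far above the other 3 light libraries, and its change of 1.90 ± 0.35 (adjusted p = 0.00233) had the largest positive value of the members. EIF6 shares 17.4% of its exon bases with AL121753.1.

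The factors for alternative initiation and reinitiation diverged within the group. EIF2A, which can deliver initiator tRNA without eIF2, had 41.8 and 106 CPM in control light, 163 and 233 in OE light, 31.9 and 25.9 in control heavy and 22.1 and 36.6 in OE heavy pools. Heavy and light libraries did not overlap, and the change of -1.98 ± 0.29 had the smallest adjusted p of the members (0.000922). EIF2D, which binds tRNA on small subunits after termination, had 27.5 and 38.2 CPM in control light, 35.2 and 58.9 in OE light, 24.7 and 29.4 in control heavy and 22.3 and 21.6 in OE heavy pools, a change of -0.66 ± 0.23 (adjusted p = 0.0467; 0.0568 with the gradient as a fixed block). MCTS1, which acts with DENR in reinitiation, had 112 and 136 CPM in control light, 51.9 and 52.8 in OE light, 206 and 259 in control heavy and 143 and 134 in OE heavy pools. MCTS1 was higher in the heavy pool of all 4 gradients (1.16 ± 0.25, adjusted p = 0.0056), while its partner DENR had a change of -0.21 ± 0.27. Of the termination factors only GSPT1 passed, with 53.1 and 109 CPM in control light, 89.9 and 109 in OE light, 63 and 60.1 in control heavy and 40.9 and 37.7 in OE heavy pools. Its heavy pool was the lower in 3 of 4 gradients, all except Molm13 control, and the change was -0.83 ± 0.26 (adjusted p = 0.0322); ETF1 (0.14 ± 0.26) and ABCE1 (-0.28 ± 0.25) did not pass.

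Counted by gradient with no test, 20 members were higher in the heavy pool of all 4 gradients and 8 were lower in all 4, against 20.9% and 21.9% of all tested genes and 33.0% and 18.6% of genes of at least 10 CPM. These are 46.5% and 18.6% of the members. The Molm13 control gradient had the narrowest spread of the members' pool differences (SD 0.52 on the log2 scale, against 1.02 to 1.39 in the other 3). Genes of at least 10 CPM showed the same (0.66 against 1.02 to 1.27), so the narrow spread is not particular to the members. Its light library is the one with few mitochondrial counts, and the part of that library in the result was not tested. Without it more members passed than the 23 called with it, and so did a larger share of all genes. The members' median log2 fold change was then 0.41, against 0.004 over all genes. EIF2S1 no longer passed, and EIF1, EIF2S2, EIF2B2, EIF3K and EIF4H did. The number of members passing fell when any other library was left out, and so did the share of all genes. EIF2S3, EIF2B1, EIF2B3, EIF2B4, EIF3B, EIF3I, EIF3L, EIF4G1, EIF6, EIF2A and MCTS1, 11 of the 23, passed under every alternative that was run. With the gradient as a fixed block, which takes account of the pools' shared gradient, 12 members were higher and 8 lower, and EIF2S1, EIF3J and EIF2D did not pass. Under upper-quartile scaling the median of all genes moved from -0.04 to -0.22 and the share of higher genes among the called from 55.25% to 39.72%, and 10 members were then higher and 9 lower.

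The annotated first bases printed above divided the members along the same axis. Of the 37 members with a RefSeq start, 8 (21.6%) began with a C and at least 4 pyrimidines, a start held by 4.05% of the 27195 RefSeq promoters. Of these 8 genes, 5 were lower in the heavy pool (EIF2S3, EIF3F, EIF4A2, EIF2A and EIF2D) and 0 were higher, with a median log2 fold change of -0.93. The remaining 3, EIF3D, EIF3K and EIF3M, had values of -0.25, 0.66 and 0.40 that did not pass. Of the 29 members without the tract 14 were higher and 1, GSPT1, was lower, with a median of 0.65. Of the 6 members lacking a RefSeq start, 3 were lower and 0 higher. Whatever their start, 15.8% of all genes were higher and 12.8% lower, and 30.7% and 13.4% of genes of at least 10 CPM. The shares that passed with and without the tract were not computed over all genes or over genes of at least 10 CPM. EIF2D, 1 of the 5, passed in 4 of 8 other settings.

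In each gradient the median of the members with the tract was below that of the members without: -0.19 against 0.57 in Molm13 control, -1.14 against 0.72 in Molm13 OE, -0.74 against 0.68 in U937 control and -1.53 against 0.71 in U937 OE. Without the Molm13 control light library the fitted medians were -1.01 and 0.79. Over all tested protein-coding genes with a start, 5.44% held the tract, and the median change was -0.16 with it and 0.16 without. Values below 0 were found for 57.7% of those genes with it and 42.3% without, and for 75.0% and 20.7% of the members. Allowing the C to lie up to 5 bases on either side of the annotated start gave 13 of 37 members (35.1%), with medians of -0.12 with the tract and 0.69 without. Of the members added by this rule, EIF3J and EIF4E2 were higher in the heavy pool, and EIF1, EIF3C and EIF4G2 did not pass. Under that wider rule 22.6% of tested protein-coding genes held the tract, and their medians were 0.03 and 0.18, so the members and the background were closer to each other than under the narrow rule. The motif was read on the transcribed strand only; a match is a property of the letters at the annotated start, and transcripts of these cells may start elsewhere.

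**Figure D3:**
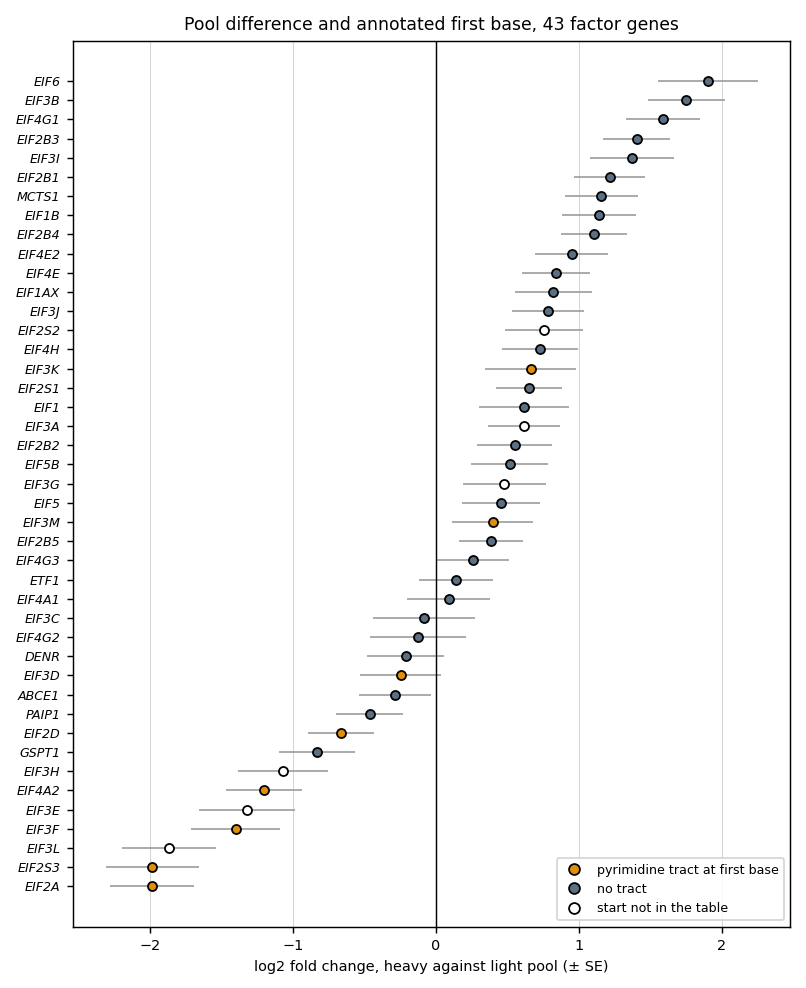
Log2 fold change of the heavy against the light pool for the 43 genes, sorted by value, with bars of 1 SE from edgeR on 8 libraries. Orange points are the 8 genes with a pyrimidine tract at the annotated first base, grey points the 29 without and white points the 6 without a start in the table. Orange and white points fill most of the lower end and the upper end is grey.

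OE and control were then compared over both pools, by averaging the difference between the labels in the light and in the heavy pool. Since each value is a share of the reads of its pool, the amount of an mRNA in the cells is not measured here. Here 4 of 43 members passed, all lower under the label OE: EIF5B, EIF4G1, EIF2B3 and MCTS1, by 1.98 (MCTS1) to 2.60 times (EIF5B). Over all genes 4.37% passed, 2.36% in the lower direction, and among genes of at least 10 CPM 6.33% passed and 4.2% were lower. In the higher direction 0 members passed, against 2.01% of all genes and 2.13% of genes of at least 10 CPM. The members' median was -0.21, against -0.05 over all genes and -0.14 over genes of at least 10 CPM.

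EIF5B, the GTPase that joins the large subunit at the start codon, had 93.3 and 109 CPM in control light, 51.1 and 40.4 in OE light, 187 and 154 in control heavy and 79.7 and 38.1 in OE heavy pools. In both pools each OE library was below both controls, and the fitted change of -1.38 ± 0.27 (adjusted p = 0.0212) had the largest size among the members. EIF5B shares 10.8% of its exon bases with REV1 on the opposite strand. EIF4G1, with the levels given above, had a change of -1.18 ± 0.26 (adjusted p = 0.0287); its OE heavy libraries, at 26.2 and 28.8 CPM, were below both control heavy libraries, and its light pools also did not overlap. EIF2B3 had a change of -1.06 ± 0.23 (adjusted p = 0.0287), with 26.8 and 21.6 CPM in control light pools against 6.99 and 8.26 under OE; the difference between the pools did not pass (interaction 1.19 ± 0.46, adjusted p = 0.791). MCTS1 had a change of -0.99 ± 0.25 (adjusted p = 0.0468) and did not overlap between labels in either pool.

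In the other complexes the member with the smallest p was also lower under OE but did not pass. ETF1, the factor that reads all stop codons, had 132 and 215 CPM in control light, 101 and 113 in OE light, 171 and 283 in control heavy and 82.3 and 123 in OE heavy pools. Each OE library was below both controls of its pool, and the value of -0.89 ± 0.26 had an adjusted p of 0.0688. EIF1AX had a value of -0.76 ± 0.27 (adjusted p = 0.118), EIF3B of -0.74 ± 0.26 (adjusted p = 0.115) and EIF2S1 of -0.60 ± 0.23 (adjusted p = 0.147). With no test, 14 members were lower under OE in all 4 pairs of the same line and pool (32.6%, against 14.4% of all genes and 19.2% of genes of at least 10 CPM). EIF4A2 and PAIP1 were higher in all 4 pairs (4.65% of members, against 11% of all genes and 9.40% of genes of at least 10 CPM).

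These 4 calls were not stable. They were 0 when the pools of a gradient were summed into 1 library, where 0 of the 25667 genes tested passed. Without the line as a block they were also 0, and 0.478% of all genes passed. Leaving out 1 library leaves 1 library in a group, and the number of members and of all genes that passed then moved in both directions. In those fits the log2 fold change was -1.63 to -1.17 for EIF5B and -1.39 to -0.99 for EIF4G1. For EIF2B3 it was -1.21 to -0.94 and for MCTS1 -1.07 to -0.92.

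**Figure D4:**
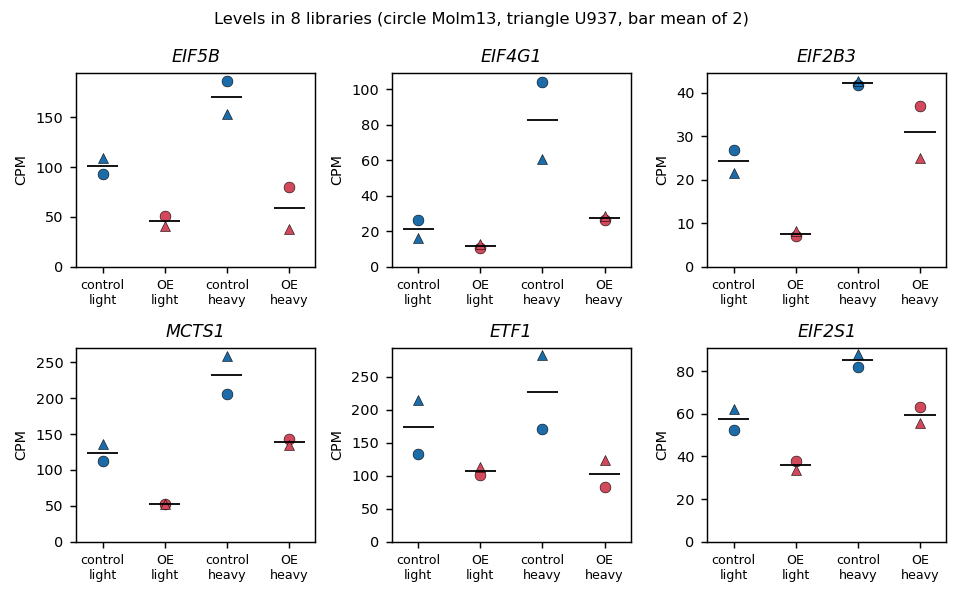
Levels in CPM (linear axes from 0) of EIF5B, EIF4G1, EIF2B3, MCTS1, ETF1 and EIF2S1 in the 8 libraries, by label and pool. Circles are Molm13, triangles U937 and the bar is the mean of 2. In each panel the OE points of a pool lie below its control points.

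Within a single pool no difference between the labels passed for any member. In the heavy pools, 0 of 43 members passed, and 0.00412% of all genes did (1 gene, in edgeR); 4 members had an unadjusted p under 0.05, against 15.1% of all genes. The values were mostly below 0: 35 of 43 members, and all 13 eIF3 subunits (EIF3C with the limit given above), had a negative log2 fold change, with a median of -0.35 over the members, -0.38 over eIF3 and -0.03 over all genes. Negative values were held by 12502 of 24289 genes and by 4965 of 9299 genes of at least 10 CPM. Taken by line, EIF3G (0.23) and EIF3I (0.17) were higher under OE in the Molm13 heavy pool. The other eIF3 subunits were lower in the heavy pools of both lines. The sign also depended on single libraries: with 1 left out, EIF3F, EIF3I and EIF3L reached 0.19, 0.02 and 0.23. Of the pathway lists described below, 6 of 7 elongation genes and 10 of 12 cap and poly(A) genes were negative (medians -0.50 and -0.59). So were 4 of 6 eIF2 kinase and phosphatase genes and 4 of 8 release factor partners. EIF5B (-1.58 ± 0.39, adjusted p = 0.0964) and EIF4G1 (-1.54 ± 0.37, adjusted p = 0.0912) had the values farthest from 0, and in both lines their OE heavy library held less than the control. ETF1 followed at -1.13 ± 0.37 and EIF4G3, the second large eIF4G scaffold, at -0.89 ± 0.36. The remaining complexes had their smallest p in EIF1B (0.74 ± 0.37), MCTS1 (-0.74 ± 0.36), EIF3E (-0.71 ± 0.47), EIF2S1 (-0.51 ± 0.32) and EIF2B5 (-0.50 ± 0.31). EIF5B, EIF4G1 and ETF1 were the 3 members called by DESeq2, which called 2.19% of all genes in this comparison. Without Molm13 control light their values in edgeR were -1.61, -1.57 and -1.13, close to those of the main fit. On simulated counts this comparison recovered 79% of well-counted genes changed 4-fold and 5% of those changed 2-fold.

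In the light pools, again 0 of 43 members passed, as did 0.0% of all genes in edgeR; 12 members had an unadjusted p under 0.05, against 14.8% of all genes and 22.7% of genes of at least 10 CPM. Values lay on both sides of 0. EIF2B3 (-1.65 ± 0.33, adjusted p = 0.138), MCTS1 (-1.24 ± 0.36), EIF3B (-1.20 ± 0.37), EIF5B (-1.18 ± 0.38), EIF2B1 (-1.14 ± 0.35), EIF6 (-1.14 ± 0.50), EIF1AX (-0.95 ± 0.38) and EIF4G1 (-0.81 ± 0.36) were below control. EIF2A (1.498 ± 0.41, adjusted p = 0.163), EIF3C (1.29 ± 0.52), EIF2S3 (1.26 ± 0.45) and EIF4A2 (1.14 ± 0.38) were above it. The value of EIF3C is uncertain, because reads that match EIF3CL cannot be assigned. The termination factor with the smallest p was ETF1, at -0.65 ± 0.37. Without Molm13 control light, in which EIF6 reached 284 CPM, the value of EIF6 was -0.42 and that of EIF2B1 -0.82. Those of EIF2B3 and EIF5B were -1.54 and -1.55. Without U937 control light members passed in both directions, but far more of all genes passed too. The only control light library is then Molm13, the one that stands apart. In either fit the lone control light library is assumed to vary like the other groups. DESeq2 called 7 members, namely EIF2B1, EIF2B3, EIF3B and MCTS1 lower and EIF2S3, EIF2A and EIF4A2 higher. Over all genes it called 2.08%.

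The difference between the pools in the effect of the label, the interaction, asks whether the heavy-to-light ratio of an mRNA depends on the label, and 0 of 43 members and 0.0% of all genes passed it (edgeR; 7 members and 5.89% of genes at an unadjusted p under 0.05; DESeq2 0 members). The eIF2B subunits had a median of 0.30, close to the 0.22 over genes of at least 10 CPM, from EIF2B1 (1.57 ± 0.49) to EIF2B5 (0.03 ± 0.44) and EIF2B2 (0.02 ± 0.52). Of the 13 eIF3 subunits 11 were below 0, with a median of -0.70, against 11208 of 24289 genes and 3491 of 9299 genes of at least 10 CPM. The pathway lists had 6 of 7 elongation genes below 0 (median -1.06) and 8 of 12 cap and poly(A) genes (-0.73). For eIF2 kinases and phosphatase it was 4 of 6 (-0.18), and for release factor partners 2 of 8 (0.50). In the other groups the smallest p belonged to EIF2S3 (-1.77 ± 0.63), EIF2A (-1.58 ± 0.58), EIF3C (-1.67 ± 0.72), EIF1B (1.23 ± 0.52), GSPT1 (-0.97 ± 0.52), EIF4A2 (-0.92 ± 0.53) and EIF6 (0.93 ± 0.69), with adjusted p-values of 0.791 to 0.819. The EIF3C value is uncertain because of EIF3CL. This comparison recovered 29% of simulated 4-fold changes in well-counted genes, so differences of these sizes were mostly not detectable. Members passed only without U937 control light, where many other genes passed too. That fit leaves Molm13 control light as the lone library of its group, with its spread taken from the other groups. Over the fits that left out 1 library, the value was 1.26 to 1.89 for EIF2B1, -2.42 to -1.23 for EIF2S3 and -2.25 to -0.97 for EIF2A.

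With no test, 11 members (25.6%) changed in opposite directions in the 2 pools in both lines, against 8.67% of all genes. EIF2S3, EIF3C, EIF3D, EIF3E, EIF3F, EIF3H, EIF3L, EIF4A1 and EIF2D were higher under OE in both light pools and lower in both heavy pools, and EIF1B and EIF2B1 showed the reverse. EIF3C is counted here although its level is not usable. All 8 members with a pyrimidine tract had an interaction value below 0, with a median of -1.004, or -0.83 without the Molm13 control light library, against 0.17 and 0.03 for the 29 members without a tract. In the light pools the fitted difference between OE and control had a median of 0.78 with the tract and -0.49 without; in the heavy pools the medians were -0.32 and -0.28. For the label and the interaction, medians with and without the tract were not computed over all tested genes. Whether the difference is particular to the members was therefore not tested. The comparisons of the label in each pool and the interaction share their libraries and are not independent of each other.

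**Figure D5:**
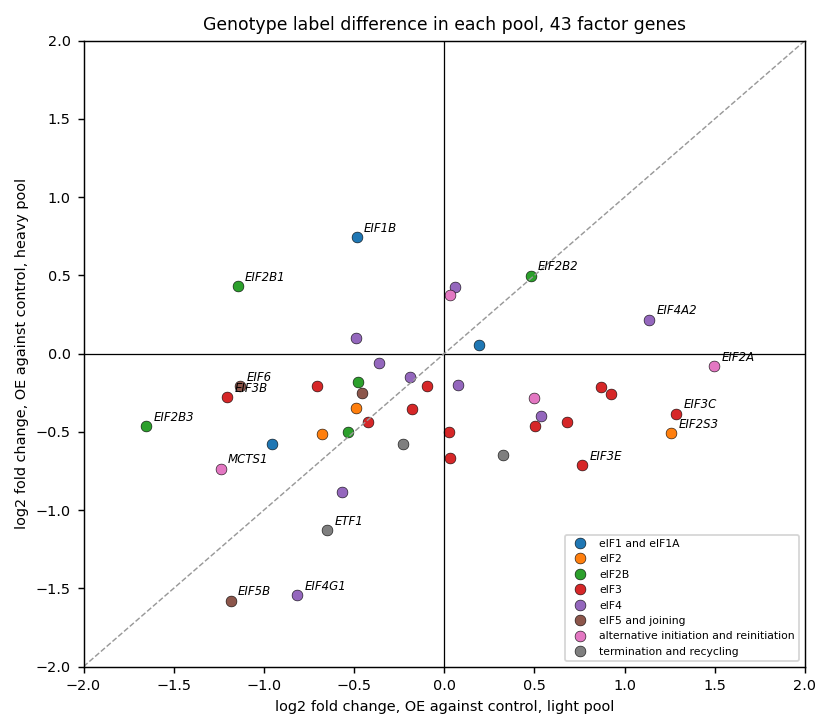
Log2 fold change of OE against control in the light pools (x axis) and in the heavy pools (y axis) for the 43 genes, coloured by complex, with the dashed line at equal change. EIF5B, EIF4G1 and ETF1 lie low on both axes, EIF2S3 and EIF2A lie at the right and below 0 on the y axis, and no gene passed the test in either pool.

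Between the lines, 0 of 43 members passed, and 0.0% of all genes in edgeR. The members' median was -0.00 on the log2 scale, from -0.68 (EIF4G2) to 0.74 (EIF6), and 2 members, EIF1B (0.62 ± 0.26) and EIF3A (0.63 ± 0.25), had an unadjusted p under 0.05, against 11.8% of all genes. The members' median absolute difference between Molm13 and U937 was 0.51 in the control light group and 0.28 to 0.31 in the other 3 groups. Over genes of at least 10 CPM it was 0.60 and 0.23 to 0.37. For both sets the lines lay farthest apart in the group that holds the Molm13 control light library.

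Other genes of the pathway were read from 4 lists, and their counts for heavy against light pools stand beside 28.6% of all genes and 44.1% of genes of at least 10 CPM. Of 7 elongation genes 1 was higher in heavy pools, EIF5A (1.64 ± 0.30), which helps ribosomes through difficult peptide bonds, and 4 were lower: EEF1A1 (-2.03 ± 0.45), EEF2 (-2.01 ± 0.40), EEF1G (-1.80 ± 0.36) and EEF1B2 (-1.04 ± 0.30). EEF1A1 delivers aminoacyl-tRNA, EEF1B2 and EEF1G belong to its exchange complex, EEF2 drives translocation, and EEF1D, a further exchange subunit, did not pass (-0.67 ± 0.31). Of 12 genes for cap and poly(A) binding and their regulators, 3 were higher and 5 lower, among them PABPC1 (-3.15 ± 0.47), PABPC4 (-2.61 ± 0.36), the EIF4E inhibitor EIF4EBP2 (-2.13 ± 0.28) and EIF4E3 (-1.62 ± 0.23). Of 6 eIF2 kinases and phosphatase subunits 0 were higher and 2 lower, PPP1R15B (-0.99 ± 0.25) and the RNA-activated kinase EIF2AK2 (-0.72 ± 0.25), a share of 33.3% that lies near the background.

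The list of release factor partners and ribosome rescue held 8 tested genes (GSPT2 did not pass the filter), of which 5 were higher in heavy pools and 0 lower, with a median of 0.99. For the label over both pools 3 of the 8 were lower under OE and 0 were higher, against 2.36% of all genes and 4.2% of genes of at least 10 CPM in the lower direction; 0 genes of the other 3 lists passed, and the difference between lists was not tested. GCN1, which senses stalled ribosomes, had 23 and 25.7 CPM in control light, 10.9 and 12 in OE light, 55.9 and 41.5 in control heavy and 18 and 17.4 in OE heavy pools, a change of -1.27 ± 0.23 (adjusted p = 0.0149). ABCF1 changed by -1.11 ± 0.24 (adjusted p = 0.0271), and ZNF598, which marks collided ribosomes with ubiquitin, by -1.03 ± 0.23 (adjusted p = 0.0282). All 3 were lower in each OE library than in both controls of the same pool, but with the pools of a gradient summed these calls are lost too, since 0 of 25667 genes passed.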

How the data were processed

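The authors deposited raw counts, whole numbers of reads per Ensembl gene ID in 8 libraries. The submitters' processing notes name GRCh38 and the tools featureCounts, STAR and cutadapt. Tool versions, annotation and strand handling: not given in the sources used here. Reads in overlapping or near-identical genes are uncertain.

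From the counts, CPM with TMM scaling and edgeR's quasi-likelihood test were computed (R 4.3.3 with edgeR version 4.0.16): group plus line, filterByExpr, all 8 libraries, 3 residual degrees of freedom, biological coefficient of variation 0.359. P-values were adjusted by Benjamini-Hochberg over the 24289 genes tested, with a threshold of 0.05. SE is the log2 fold change divided by the root of F. Pools of a gradient count as independent libraries. Numbers pair libraries because the same number is the same line; deviations from group means correlated at -0.102 to 0.631 between groups. Differences within a gradient used log2(CPM + 1). Exon lengths and overlaps come from a GENCODE annotation of GRCh38.

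Genes were named where a member passed in any comparison or had the smallest p of its complex; other lists gave at most 4. Members, lists and tests were chosen with earlier results of these data known. Scripts were tested on simulated counts, in which the changed genes were drawn only from those above a minimum mean count. The simulation held no line effect and no shared gradient, so its recovery rates apply to that simpler design. Alternatives were DESeq2 1.42.0, limma 3.58.1 voom (also with the gradient as a random block), other scalings, no filter, no line block, gradient as a fixed block, summed pools and leaving out each library.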

Additional observations from a re-analysis of the deposited data

How the results depend on the processing

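The numbers of members past the threshold depended on the processing as follows. For the label over both pools (4 members) the fit with no replicate block gave 0, summing the pools of a gradient 0, a random block for the gradient in limma voom 10 and DESeq2 7, and leaving out 1 library gave 0 to 9. For the heavy pools (0 members) no filter gave 2, DESeq2 3 and leaving out 1 library 0 to 3; for the light pools (0 members) the same gave 2, 7 and 0 to 8. For the interaction (0 members) leaving out 1 library gave 0 to 5. For heavy against light pools (23 members) leaving out 1 library gave 12 to 27 and the other settings 19 to 27, with no replicate block at 20. Between the lines all settings gave 0 members. The random block for the gradient had an estimated correlation of -0.258. A negative value lowers the SE of a label difference averaged over both pools, so the 10 members of that setting are not a stricter result. Over both pools upper-quartile scaling moved the share of higher genes among the called from 45.9% to 60.99%, and the number of genes called was 116 with no replicate block and 0 with summed pools against 1061. The replicate block pairs libraries of the same line. No value of a named gene reversed its sign once called; of the single-gene alternatives 727 kept their side of the threshold, 41 crossed to significant and 96 were lost. With 2 libraries per group, 4-fold changes of well-counted genes were recovered in simulation at 79% or more within a pool and 2-fold changes at 10% or less.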
